A study of Mus musculus with 10 samples.

Results

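Mesenchymal cells of the adult mouse lung that were sorted as Axin2:Pdgfra were compared with cells sorted as Pdgfra, by RNA-seq of 2 libraries of each, which makes 4 of the 10 libraries of the series. All 4 came from mice of the line Axin2CreERT2:tdT:PdgfraEGFP, so both groups carry the CreERT2 allele at Axin2, the tdT reporter and the EGFP reporter of Pdgfra. CreERT2 is a recombinase that is active only with tamoxifen and permanently switches on tdT in cells that express its driver gene, while EGFP reports expression from the Pdgfra gene. The labels give neither the tamoxifen schedule, nor the sorting gates, nor whether different animals gave the libraries of a group. The p-values therefore measure only the spread between these libraries, which may be technical. Axin2 and Negative cells of the same line, 2 libraries each, are used for 1 comparison at the end, and Wnt2 cells of another line, Wnt2CreERT2:R26REFYP, add to the estimate of spread. The comparison covers 14177 of 14854 genes, those that reached 6 on the log2 scale in 2 or more of the 10 libraries. It asks which transcripts go with the Axin2 label among cells that carry the Pdgfra reporter.

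Axin2 is a scaffold of the complex that degrades beta-catenin, and it is itself switched on by canonical Wnt signalling, so that a recombinase driven from it marks cells with a history of Wnt response. Pdgfra is the alpha receptor for platelet-derived growth factors and marks fibroblasts of the lung, among them fibroblasts next to the alveolar epithelium and lipid-storing ones. Wnt-responsive and Pdgfra-positive fibroblasts are known as sources of growth factors and matrix for the alveolus.

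All levels below are the deposited log2 values, and differences are Axin2:Pdgfra minus Pdgfra on that scale, where 1 unit is a doubling. The libraries have near-identical distributions, with medians of 9.1 or 9.11, and no counts are given, so depth is unknown. Exact values recur across genes and libraries, such as 17.32 for Prelp in both Axin2:Pdgfra libraries and for mt-Co1 in Pdgfra library 1. Equal values of a gene in 2 libraries, given below for some abundant genes, can therefore reflect an equal rank rather than measured agreement. The lowest value of a library is shared by 8.6% and 15% of genes in the Axin2:Pdgfra libraries and by 8% and 2.1% in the Pdgfra libraries, and such a gene is called listed at the lowest value below. Spearman's rho over genes was 0.807 between the Axin2:Pdgfra libraries, 0.853 between the Pdgfra libraries and 0.751 to 0.846 between libraries of different groups. The Axin2:Pdgfra libraries were thus less alike than at least 1 pair across groups.

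The genes behind the labels did not separate the groups. Pdgfra was at 14.91 and 15.21 in Axin2:Pdgfra cells, against 14.64 and 14.92 in Pdgfra cells, a difference of 0.28 ± 0.36 (SE, 95% interval -0.50 to 1.05; limma adjusted p = 0.783). Axin2 was at 12.04 and 9.54 in Axin2:Pdgfra cells, against 10.39 and 11.06 in Pdgfra cells, a difference of 0.07 ± 0.74 (95% interval -1.53 to 1.66; limma adjusted p = 0.982). The ranges overlapped for both genes, and the Axin2:Pdgfra libraries differed more from each other in Axin2 than either differed from the Pdgfra libraries. Since the Axin2 label is permanent, the transcript level at the time of sorting does not check it. The defining fibroblast transcripts Col1a1, Col1a2, Col3a1, Dcn, Pdgfra and Tcf21 were present in all 4 libraries, with summed levels of 17.79 and 17.55 in Axin2:Pdgfra cells and 17.06 and 17.68 in Pdgfra cells.

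Of the 14177 genes, 6 were lower in Axin2:Pdgfra cells at a limma adjusted p under 0.05, which is 0.0423%, and 0 were higher. These were Neat1, Il18r1, Epas1, Sema6d, Pcdh1 and Akap5. At an unadjusted limma p under 0.05, 793 genes were higher (5.59%) and 1008 lower (7.11%). With 2 libraries a group many genes do not overlap between groups without passing any test: 3181 lay higher in both Axin2:Pdgfra libraries (22.4%) and 2953 lower (20.8%). The median difference over all genes was 0.01, with 7144 positive and 7032 negative. The lowest value was higher in each Axin2:Pdgfra library than in either Pdgfra library. A gene listed at the lowest value in every library compared therefore counts as positive and as higher without overlap. Counts of positive differences and of genes higher without overlap, here and in the lists below, can include such genes. Their number was not computed.

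Neat1, the long noncoding RNA around which nuclear paraspeckles form, was at 13.40 and 13.77 in Axin2:Pdgfra cells, against 16.58 and 16.14 in Pdgfra cells. It fell by 2.78 ± 0.28 (SE; limma adjusted p = 0.00131). Both Axin2:Pdgfra libraries lay below both Pdgfra libraries by more than 2 units, and the Pdgfra libraries held the highest Neat1 values of the series. Il18r1, the ligand-binding chain of the interleukin-18 receptor, was at 5.50 and 6.01 in Axin2:Pdgfra cells, against 11.94 and 10.69 in Pdgfra cells. It fell by 5.56 ± 0.66 (limma adjusted p = 0.00495). Its level in Axin2:Pdgfra cells was the lowest of the 5 lineages, the other lineages being at 10.14 or more. Epas1, which encodes the hypoxia-inducible factor HIF-2 alpha, was at 13.27 and 13.18 in Axin2:Pdgfra cells, against 15.92 and 15.56 in Pdgfra cells. It fell by 2.52 ± 0.31 (limma adjusted p = 0.00519). Here too every library outside the Axin2:Pdgfra group was higher, from 14.80 upwards.

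Sema6d, a membrane-bound semaphorin that signals through plexins, was at 9.11 and 9.57 in Axin2:Pdgfra cells, against 13.10 and 12.13 in Pdgfra cells, and fell by 3.27 ± 0.45 (limma adjusted p = 0.0139). Pcdh1, a protocadherin of cell contacts, was at 11.25 and 10.73 in Axin2:Pdgfra cells, against 13.36 and 13.42 in Pdgfra cells, and fell by 2.40 ± 0.36 (limma adjusted p = 0.0263). Akap5, which anchors protein kinase A at membranes, was at 9.85 and 9.48 in Axin2:Pdgfra cells, against 14.13 and 12.23 in Pdgfra cells, and fell by 3.52 ± 0.56 (limma adjusted p = 0.0409). The groups did not overlap for any of these genes, and the Pdgfra libraries differed from each other by nearly 2 units in Akap5 and by about 1 in Sema6d. Pcdh1 was as low in the Wnt2 cells, at 11.07 and 11.57, as in Axin2:Pdgfra cells.

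**Figure D1:**
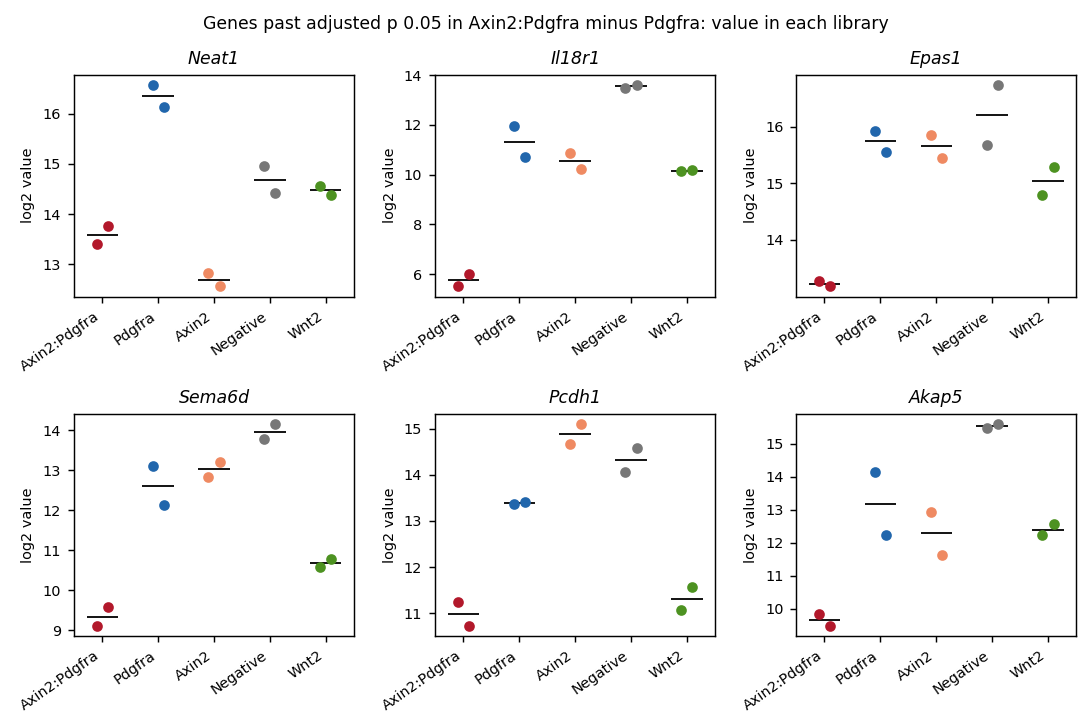
Deposited log2 value (y axis) of Neat1, Il18r1, Epas1, Sema6d, Pcdh1 and Akap5 in each library of the 5 lineages (x axis); points are libraries and bars are means of 2. In every panel both Axin2:Pdgfra points lie below both Pdgfra points, from 5.50 against 11.94 in Il18r1 to 11.25 against 13.36 in Pcdh1 for the first library of each group.

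These calls rest on few libraries. Pdgfra library 1 was titled EGFP_1, whereas Pdgfra library 2 was titled Pdgfra Rep2. The labels do not say whether both were prepared alike. Without Pdgfra library 1 no gene passed in limma (905 at an unadjusted p under 0.05), with adjusted p of 0.149 for Neat1 up to 0.654 for Akap5, and the count was 49 or 12 when Axin2:Pdgfra library 1 or 2 was left out, 11 without Pdgfra library 2, and 57 or 52 without Negative library 0 or 2. Genes higher in Axin2:Pdgfra cells were among these calls in 3 cases, 6 of the 11 without Pdgfra library 2 and 4 without either Negative library. No call held when limma's variance trend and robust option were left out (0 genes, 1730 at an unadjusted p under 0.05; adjusted p of 0.115 to 0.18 for the 6).

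The next 15 lower genes had limma adjusted p of 0.0541 to 0.0621 and did not pass. Fam163b had the widest gap, with 1.70 (the lowest value of that library) and 4.74 in Axin2:Pdgfra cells, against 13.00 and 12.35 in Pdgfra cells, a difference of -9.45 ± 1.75 (SE; limma adjusted p = 0.0621). It was near the bottom of the scale in Axin2 cells (1.55 and 1.75) and Negative cells (1.79 and 2.67), and at 7.64 and 6.68 in Wnt2 cells, so the Pdgfra libraries stood apart from every other lineage. Serpinb6b, a serine protease inhibitor, was at 3.62 and 7.05 in Axin2:Pdgfra cells, against 11.95 and 10.28 in Pdgfra cells, a difference of -5.78 ± 1.05. Ptprb, the receptor phosphatase of endothelial junctions, was at 13.15 and 12.81 in Axin2:Pdgfra cells, against 15.53 and 14.74 in Pdgfra cells, a difference of -2.16 ± 0.39. The splicing factors Luc7l2, Rbm25, Srrm2 and Dazap1 were also among the 15, with differences of -1.95, -2.52, -1.47 and -3.36. For Rbm25 the Pdgfra libraries, at 14.01 and 13.60, again held the highest values of the series, while Axin2:Pdgfra cells, at 11.12 and 11.46, lay among the Axin2 and Negative libraries. Tspan18, a tetraspanin, Ppp1r16b, a regulator of protein phosphatase 1, Cyth3, an exchange factor for Arf GTPases, Hmbox1, a homeobox protein, Sfi1, a centrin-binding protein, and Nckap5 and Cramp1l lay between -2.27 (Cyth3) and -3.89 (Cramp1l). mt-Nd5, a complex I subunit encoded in mitochondrial DNA, completes them and is described with its family.

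The 15 higher genes with the smallest p had limma adjusted p of 0.0774 to 0.138, so none passed. Tst, the mitochondrial thiosulfate sulfurtransferase, was at 11.93 and 11.46 in Axin2:Pdgfra cells, against 8.72 and 7.76 in Pdgfra cells, a difference of 3.46 ± 0.71 (SE; limma adjusted p = 0.0774). Lgals1, which encodes the secreted lectin galectin-1, was at 12.63 and 12 in Axin2:Pdgfra cells, against 9.30 and 9.38 in Pdgfra cells, a difference of 2.97 ± 0.65 (limma adjusted p = 0.0941). For both genes the 2 Axin2:Pdgfra values were the highest of the 10 libraries. Slc48a1, a haem transporter, was at 12.47 and 12.65 in Axin2:Pdgfra cells, against 9.88 and 10.96 in Pdgfra cells, a difference of 2.14 ± 0.45. Klhl21, an adaptor of a cullin ubiquitin ligase, was at 12.69 and 13.00 in Axin2:Pdgfra cells, against 10.77 and 10.82 in Pdgfra cells, a difference of 2.05 ± 0.47. Slc48a1 was as high in Axin2 and Negative cells, at 12.20 to 12.64, as in Axin2:Pdgfra cells, whereas Klhl21 was at 11.79 or less in all other libraries. Epm2a, the glycogen phosphatase laforin, and Tlcd2 and Lrrc3 had differences of 5.84 to 7.45, with Pdgfra values of 1.55 to 4.37 near the bottom of the scale, and Lrrc3 was listed at the lowest value in Pdgfra library 1. Cops9, a subunit of the COP9 signalosome, had a difference of 4.73 ± 1.13 with Pdgfra values of 4.04 and 8.71 far apart. Cnih1, which exports cargo from the endoplasmic reticulum, was at 11.99 and 12.26 in Axin2:Pdgfra cells, against 9.69 and 10.09 in Pdgfra cells, a difference of 2.24 ± 0.54. The ribosomal proteins Rps15, Rps21 and Rplp0 and complement C3 also belong to this set and are described with their lists.

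**Figure D2:**
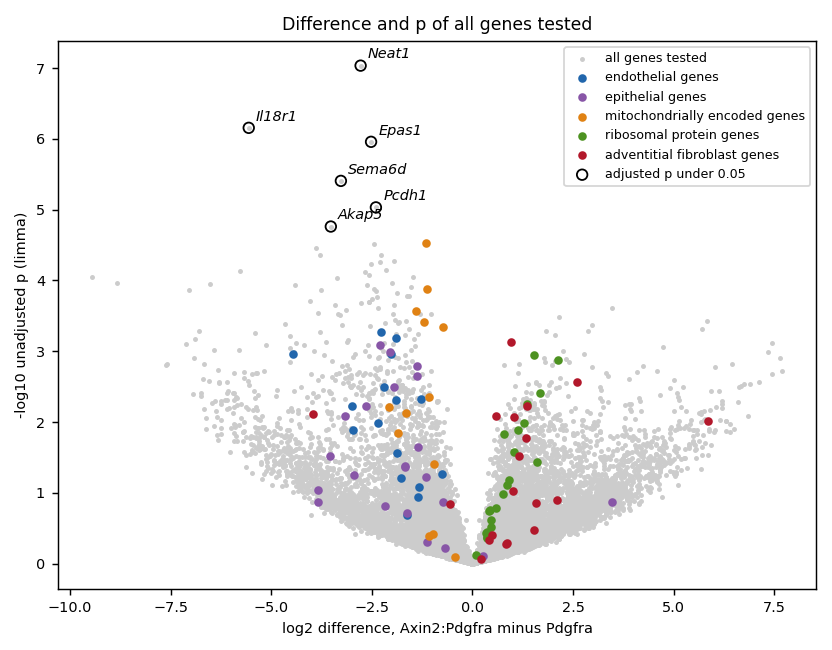
Log2 difference of Axin2:Pdgfra minus Pdgfra (x axis) and -log10 of the unadjusted limma p (y axis) of the 14177 genes tested; colours mark 5 gene sets and rings the 6 genes at an adjusted p under 0.05. All 6 rings lie left of 0, the endothelial (blue), most epithelial (purple) and the mitochondrially encoded (orange) genes lie left, and the ribosomal protein (green) and most adventitial fibroblast (red) genes lie right.

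Endothelial, epithelial and most immune cell transcripts were lower in Axin2:Pdgfra cells. Of 16 endothelial genes all had a negative difference. Without overlap 15 were lower, against 20.8% of all genes. At an unadjusted limma p under 0.05, 11 were lower, against 7.11% of all genes, and none passed the adjusted threshold. The median difference was -1.90, against 0.01 over all genes. Pecam1, an adhesion molecule of endothelial junctions, was at 10.92 and 11.47 in Axin2:Pdgfra cells, against 13.53 and 13.41 in Pdgfra cells, a difference of -2.27 ± 0.51 (SE; limma adjusted p = 0.104). Cdh5, the cadherin of those junctions, was at 12.33 and 13.40 in Axin2:Pdgfra cells, against 14.78 and 14.73 in Pdgfra cells, a difference of -1.89 ± 0.43 (limma adjusted p = 0.114). Emcn, a surface sialomucin of capillaries and veins, was at 7.83 and 5.41 in Axin2:Pdgfra cells, against 11.45 and 10.73 in Pdgfra cells, a difference of -4.47 ± 1.10 (limma adjusted p = 0.138). Each of these genes had both Pdgfra values above both Axin2:Pdgfra values. Pecam1 and Cdh5 were still at 10.92 or more in Axin2:Pdgfra cells. Emcn, at 5.41 in Axin2:Pdgfra library 2, lay near the bottom of that library, whose lowest values were 2.06 and 4.74. The summed endothelial level was 15.06 and 15.14 in Axin2:Pdgfra cells, against 16.81 and 16.74 in Pdgfra cells. Leaving out any 1 of the 10 libraries left the median between -1.99 and -1.70. In bulk samples, fewer cells of a type and less RNA per cell cannot be told apart.

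Of 22 alveolar and airway epithelial genes, 15 were lower without overlap, against 20.8% of all genes, and 0 higher. At an unadjusted limma p under 0.05, 11 were lower, against 7.11% of all genes. The list's median was -1.67, and none of its genes passed the adjusted threshold. Slc34a2, the phosphate carrier of alveolar type 2 cells, was at 11.52 and 12.38 in Axin2:Pdgfra cells, against 14.74 and 13.76 in Pdgfra cells, a difference of -2.30 ± 0.54 (SE; limma adjusted p = 0.122). The surfactant genes Sftpa1 and Sftpc differed by -2.05 ± 0.50 and -1.39 ± 0.36. Sftpc was at 13.73 and 13.31 in Axin2:Pdgfra cells, against 15.13 and 14.68 in Pdgfra cells, and the club cell gene Scgb1a1 at 13.74 and 14.34, against 15.61 and 15.21. Epithelial transcripts were therefore present in both groups, at a lower level in Axin2:Pdgfra cells. The summed epithelial level was 15.63 and 15.72 in Axin2:Pdgfra cells, against 17.52 and 16.83 in Pdgfra cells. Pdgfra library 1 was the higher of its pair, and without it only 4 epithelial genes were lower at an unadjusted limma p under 0.05, with a median of -1.23. Epcam ran the other way, with 10.06 and 4.74 in Axin2:Pdgfra cells and 1.55 and 6.33 in Pdgfra cells, and overlapped between groups.

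Immune cell genes were mostly lower as well, 13 of 16 with a negative difference, at a median of -1.18. At an unadjusted limma p under 0.05, 2 were lower, against 7.11% of all genes, and none was higher. Cd74, the invariant chain of MHC class II, was at 11.46 and 11.63 in Axin2:Pdgfra cells, against 12.97 and 13.01 in Pdgfra cells, a difference of -1.45 ± 0.33 (SE; limma adjusted p = 0.117). Lyz2, lysozyme of macrophages and alveolar type 2 cells, was at 13.00 and 13.65 in Axin2:Pdgfra cells, against 14.88 and 14.37 in Pdgfra cells, a difference of -1.30 ± 0.42. Neither gene overlapped between groups. The immune median was -0.28 without Pdgfra library 2 and -0.37 with values under 6 raised to 6. Erythroid (7 tested), mesothelial (8 tested) and Schwann cell genes (6 tested) had 1, 1 and 0 members at an unadjusted limma p under 0.05, with medians of -0.80, 0.24 and 1.17. All 6 Schwann cell genes had a positive difference, 3 of them without overlap, and their median was 0.42 without Axin2:Pdgfra library 2 and 0.24 with values under 6 raised to 6. The named ones were haemoglobin Hbb-bs, at 6.85 and 5.93 in Axin2:Pdgfra cells against 9.99 and 9.32 in Pdgfra cells, and the mesothelial gene Gpm6a, at 1.70 and 5.08 against 8.13 and 6.89. The Schwann cell factor Sox10 was listed at the lowest value in all 4 libraries. That value was higher in each Axin2:Pdgfra library than in either Pdgfra library. Sox10 is therefore among the 6 positive differences and the 3 without overlap only because the lowest values differ. S100b, also among those 3, was listed at the lowest value in 3 of the 4 libraries. The part of these other cell types in the differences of single genes, including the 6 genes that passed, was not tested.

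**Figure D3:**
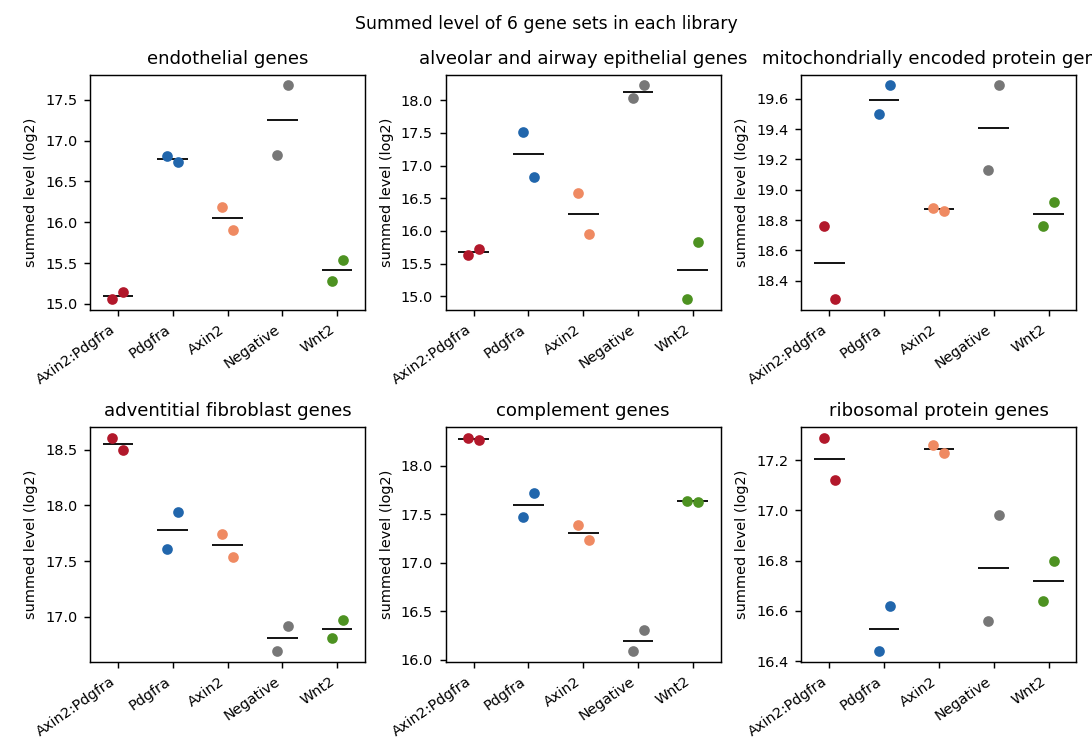
Summed level of 6 gene sets, as log2 of the sum of the members' unlogged values (y axis), in each library of the 5 lineages (x axis); points are libraries and bars are means of 2. Endothelial, epithelial and mitochondrially encoded genes are lower in both Axin2:Pdgfra libraries than in both Pdgfra libraries (15.06 and 15.14 against 16.81 and 16.74 for endothelial genes), and adventitial fibroblast, complement and ribosomal protein genes are higher.

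Contractile mural cells gave a divided picture. Of 16 pericyte genes, 6 were lower at an unadjusted limma p under 0.05, against 7.11% of all genes, and 0 higher. The pericyte median of -1.22 was -0.58 without Axin2:Pdgfra library 2 and -0.75 without Pdgfra library 2. Mcam, an adhesion molecule shared by pericytes and endothelium, was at 8.72 and 10.54 in Axin2:Pdgfra cells, against 12.07 and 11.61 in Pdgfra cells, a difference of -2.21 ± 0.52 (SE; limma adjusted p = 0.122). Rgs4, a brake on G protein signalling, was at 3.36 and 5.08 in Axin2:Pdgfra cells, against 8.73 and 7.58 in Pdgfra cells. Periostin (Postn), a matricellular protein, was at 11.44 and 10.50 in Axin2:Pdgfra cells, against 12.52 and 12.56 in Pdgfra cells. These 3 genes were lower without overlap. The 5 defining pericyte markers were mixed: Cspg4, a proteoglycan, differed by -2.53 ± 0.79 and the channel gene Kcnj8 by 2.21 ± 1.08, while Rgs5 (-0.34 ± 0.65) and the receptors Notch3 (-0.31 ± 0.55) and Pdgfrb (0.08 ± 0.31) were closer to 0. Of 16 smooth muscle contractile genes, 1 was higher and 2 were lower at an unadjusted limma p under 0.05. The shares of all genes were 5.59% and 7.11%. The smooth muscle median of 0.36 was -0.09 without Pdgfra library 1. Mylk, the kinase of myosin light chains, was at 14.92 and 14.74 in Axin2:Pdgfra cells, against 15.77 and 15.92 in Pdgfra cells, a difference of -1.02 ± 0.21 (limma adjusted p = 0.0816). Myl9, a light chain that this kinase phosphorylates, ran the other way, at 12.68 and 12.11 in Axin2:Pdgfra cells, against 10.88 and 10.43 in Pdgfra cells, a difference of 1.74 ± 0.54 (limma adjusted p = 0.216). Caldesmon (Cald1) differed by -0.87 ± 0.26.

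Most genes of adventitial fibroblasts were higher in Axin2:Pdgfra cells; these are the cells of the sheath around airways and vessels. Of 19 adventitial genes, 17 had a positive difference, and the median was 1.01. Without overlap 14 were higher and 2 lower, against 22.4% and 20.8% of all genes. At an unadjusted limma p under 0.05, 8 were higher and 1 lower, against 5.59% and 7.11% of all genes. None passed the adjusted threshold. C3, the central component of complement, was at 17.04 in both Axin2:Pdgfra libraries and at 16.09 in both Pdgfra libraries, a difference of 0.95 ± 0.22 (SE; limma adjusted p = 0.122). Igfbp6, a carrier with preference for IGF2, was at 11.49 and 12.42 in Axin2:Pdgfra cells, against 9.50 and 9.24 in Pdgfra cells, a difference of 2.59 ± 0.71 (limma adjusted p = 0.176). Igfbp4, another IGF carrier, was at 14.03 and 14.13 in Axin2:Pdgfra cells, against 12.42 and 13.03 in Pdgfra cells, a difference of 1.36 ± 0.42 (limma adjusted p = 0.216). All 3 were higher without overlap, and for each of them the Axin2:Pdgfra values were the highest of the 10 libraries. The 2 lower genes were Dpp4, a surface peptidase, at 10.19 and 4.74 in Axin2:Pdgfra cells against 11.46 and 11.40 in Pdgfra cells, and the surface antigen gene Ly6a, at 13.90 and 13.12 in Axin2:Pdgfra cells against 14.07 in both Pdgfra libraries. The summed adventitial level was 18.61 and 18.50 in Axin2:Pdgfra cells, against 17.61 and 17.94 in Pdgfra cells, the highest of the 5 lineages. The number of adventitial genes higher at an unadjusted limma p under 0.05 was 2 without Pdgfra library 1, 4 when Axin2:Pdgfra library 1 was left out and 5 when its library 2 was, with medians of 0.78, 0.88 and 1.04.

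Genes of alveolar fibroblasts and lipofibroblasts were close to even, with a median of 0.35. At an unadjusted limma p under 0.05, 2 of 19 were higher and 1 lower, against 5.59% and 7.11% of all genes. Gpc3, a heparan sulphate proteoglycan of the cell surface, was at 13.68 and 13.03 in Axin2:Pdgfra cells, against 10.99 and 12.77 in Pdgfra cells, a difference of 1.47 ± 0.55 (SE; limma adjusted p = 0.296). Tcf21, a transcription factor of lung fibroblasts, was at 13.61 and 13.33 in Axin2:Pdgfra cells, against 12.03 and 12.78 in Pdgfra cells, a difference of 1.06 ± 0.48. Both were higher without overlap, by margins of less than 1 unit between the nearest libraries. Limch1, an activator of nonmuscle myosin, was at 14.78 and 14.37 in Axin2:Pdgfra cells, against 15.22 in both Pdgfra libraries. In the summed level the lists of alveolar fibroblast genes differed little, 19.08 and 19.05 in Axin2:Pdgfra cells against 18.90 and 19.02 in Pdgfra cells.

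Genes of small secreted proteoglycans and most elastic fibre and matricellular genes had higher values in Axin2:Pdgfra cells, but none passed the adjusted threshold. All 10 small leucine-rich proteoglycans tested had a positive difference, with a median of 0.61. Of them 7 were higher without overlap, against 22.4% of all genes. At an unadjusted limma p under 0.05, 3 were higher, against 5.59% of all genes. Prelp, which anchors basement membranes to connective tissue, was at 17.32 in both Axin2:Pdgfra libraries and 16.53 in both Pdgfra libraries, a difference of 0.79 ± 0.20 (SE; limma adjusted p = 0.153). Osteoglycin (Ogn) and biglycan (Bgn), which bind collagen fibrils, differed by 0.74 ± 0.31 and 0.43 ± 0.18. The number at an unadjusted limma p under 0.05 was 1 when library 1 of either group was left out. Of 19 elastic fibre and matricellular genes, 7 were higher and 1 lower at an unadjusted limma p under 0.05, at a median of 0.37. The shares of all genes were 5.59% higher and 7.11% lower. Fbln1, a fibulin of elastic fibres and basement membranes, was at 14.52 and 14.45 in Axin2:Pdgfra cells, against 13.19 and 13.46 in Pdgfra cells, a difference of 1.16 ± 0.36 (limma adjusted p = 0.221). Mfap4, a partner of tropoelastin, was at 16.85 and 16.45 in Axin2:Pdgfra cells, against 15.38 and 16.32 in Pdgfra cells, a difference of 0.80 ± 0.27. The list's 1 lower gene was Postn, given with the pericyte genes. Without Pdgfra library 1 the number of higher elastic fibre genes was 1, and without either Axin2:Pdgfra library it was 3.

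Of 19 genes of fibrillar collagens and collagen processing, 6 were higher at an unadjusted limma p under 0.05, against 5.59% of all genes. None was lower, and the median was 0.24. Plod3, a lysyl hydroxylase of procollagen, was at 11.53 and 11.58 in Axin2:Pdgfra cells, against 8.77 and 10.01 in Pdgfra cells, a difference of 2.17 ± 0.59 (SE; limma adjusted p = 0.169). Plod1, of the same enzyme family, and Serpinh1, the collagen chaperone HSP47, differed by 1.21 ± 0.46 and 1.09 ± 0.42. Of the collagen chains, Col1a1 was at 15.16 and 14.77 in Axin2:Pdgfra cells, against 14.40 and 15.01 in Pdgfra cells, and Col3a1 at 15.95 and 15.41, against 15.09 and 15.85, with overlapping ranges. The 95% interval of the Col1a1 difference ran from -0.45 to 0.96. Without Axin2:Pdgfra library 1 or Pdgfra library 1 a single collagen gene was higher at an unadjusted limma p under 0.05. Basement membrane genes were mixed, at a median of 0.20. At an unadjusted limma p under 0.05, 1 of 18 was higher and 3 lower, against 5.59% and 7.11% of all genes. Within the collagen IV family Col4a3 was at 9.97 and 9.56 in Axin2:Pdgfra cells, against 11.62 and 11.32 in Pdgfra cells, while Col4a6 was at 10.17 and 11.05, against 6.76 and 8.78. The basement membrane linker nidogen-2 (Nid2) was at 8.4 and 5.55 in Axin2:Pdgfra cells, against 10.22 and 9.43 in Pdgfra cells. The median of 20 matrix proteases and inhibitors was 0.52. At an unadjusted limma p under 0.05, where 5.59% of all genes were higher and 7.11% lower, 1 was higher and 1 lower. These were the gelatinase Mmp2, at 14.95 and 14.84 in Axin2:Pdgfra cells against 13.15 and 14.14 in Pdgfra cells, and the metalloprotease Adamts10, at 14.11 and 12.66 against 14.69 and 15.07. Timp2, an inhibitor that also helps activate pro-Mmp2, differed by 0.52 ± 0.25. Integrins, the receptors for matrix, had 3 of 16 lower, against 7.11% of all genes, and 0 higher. Their median of -0.44 was -0.01 without Pdgfra library 2, -0.03 without Axin2:Pdgfra library 1 and -0.13 with values under 6 raised to 6. Itga3 was at 8.77 and 9.32 in Axin2:Pdgfra cells, against 12.11 and 11.07 in Pdgfra cells, a difference of -2.54 ± 0.56 (limma adjusted p = 0.0957). It pairs with Itgb1 to bind laminin, and so does Itga6, which differed by -1.53 ± 0.63; the collagen receptor chain Itga1 differed by -1.63 ± 0.53.

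**Figure D4:**
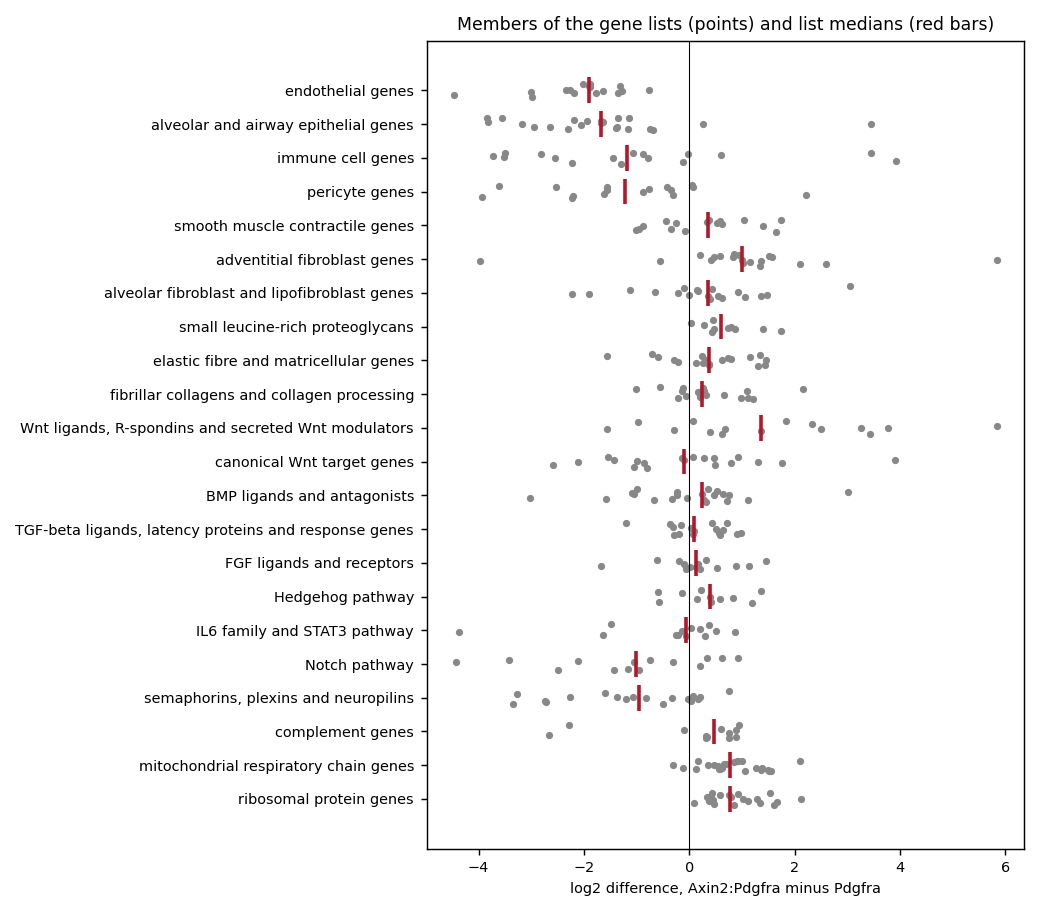
Log2 difference of Axin2:Pdgfra minus Pdgfra (x axis) for the tested members of 22 gene lists (rows); grey points are genes and red bars list medians. Medians run from -1.90 for endothelial genes to 1.36 for Wnt ligands and secreted modulators, and members spread over several units within most lists.

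Most secreted factors of the Wnt pathway had higher values in Axin2:Pdgfra cells, and the transcriptional targets of the pathway lay on both sides. Of 15 Wnt ligands, R-spondins and secreted Wnt modulators, 12 had a positive difference, and the median was 1.36. Without overlap 7 were higher and 0 lower, against 22.4% and 20.8% of all genes. At an unadjusted limma p under 0.05, 2 were higher, against 5.59% of all genes. Sfrp4, a secreted decoy receptor for Wnt, was at 9.14 and 9.87 in Axin2:Pdgfra cells, against 1.55 and 5.77 in Pdgfra cells, where it was listed at the lowest value in library 1. Dkk3, a secreted glycoprotein of the Dickkopf family, was at 14.13 and 14.17 in Axin2:Pdgfra cells, against 13.18 and 13.74 in Pdgfra cells, a difference of 0.68 ± 0.31 (SE; limma adjusted p = 0.374). The ligand Wnt2b was at 10.47 and 10.87 in Axin2:Pdgfra cells, against 8.88 and 7.43 in Pdgfra cells, a difference of 2.51 ± 1.21. The list's median depended on Pdgfra library 1 and on low values: it was 0.41 without that library, 0.75 without Axin2:Pdgfra library 1 and 0.66 with values under 6 raised to 6. Of 19 canonical Wnt targets, 1 was higher and 2 were lower at an unadjusted limma p under 0.05, at a median of -0.10. The shares of all genes were 5.59% and 7.11%. Ccnd1, which encodes cyclin D1, was at 10.45 and 8.81 in Axin2:Pdgfra cells, against 12.48 and 11.94 in Pdgfra cells, a difference of -2.58 ± 0.77 (limma adjusted p = 0.198). The feedback inhibitors Nkd1 and Nkd2 ran in opposite directions, Nkd1 with 10.55 and 9.96 in Axin2:Pdgfra cells against 12.12 and 11.48 in Pdgfra cells, and Nkd2 with 11.13 and 10.94 against 4.04 and 10.22. Among 14 Frizzled receptors and coreceptors 1 was lower, at a median of 0.08: the coreceptor Lrp5 was at 12.88 and 11.66 in Axin2:Pdgfra cells, against 14.41 and 13.99 in Pdgfra cells, a difference of -1.93 ± 0.41 (limma adjusted p = 0.0919).

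Other signalling lists held few genes past even an unadjusted limma p of 0.05, at which 5.59% of all genes were higher and 7.11% lower. Of 7 PDGF ligands and receptors 1 was lower, with a median of 0.09: the ligand Pdgfa was at 7.37 and 8.03 in Axin2:Pdgfra cells, against 9.77 and 9.66 in Pdgfra cells. Of 15 FGF ligands and receptors 1 was lower, with a median of 0.12: Fgf1 was at 11.17 and 10.21 in Axin2:Pdgfra cells, against 12.30 and 12.45 in Pdgfra cells, a difference of -1.68 ± 0.53 (SE). Fgf10, a mesenchymal ligand for the epithelium, was at 12.26 and 11.03, against 11.10 and 10.44, and overlapped. Among 21 BMP genes 2 were lower, with a median of 0.24. They were the receptor Bmpr2, at 13.49 and 14.06 in Axin2:Pdgfra cells against 15.06 and 14.57 in Pdgfra cells (-1.04 ± 0.28), and the ligand Bmp6, at 9.22 and 9.01 against 11.92 and 12.35 (-3.02 ± 0.85). Both lay lower without overlap. Of 17 TGF-beta genes 3 were higher and 0 lower, with a median of 0.09, and 8 were higher without overlap, against 22.4% of all genes. The 3 were the response gene Ccn2 (0.91 ± 0.35) and the latency proteins Ltbp4 (0.59 ± 0.23) and Ltbp3 (0.98 ± 0.40), which hold TGF-beta in the matrix. Ltbp4 was at 16.14 and 16.39 in Axin2:Pdgfra cells, against 15.52 and 15.83 in Pdgfra cells.

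Of 13 genes of the IL6 family and STAT3 pathway, 1 was lower, the kinase Jak2 (-1.63 ± 0.52 SE), with a median of -0.06, and of 11 Hedgehog genes none differed at an unadjusted limma p under 0.05, with a median of 0.39. The Hedgehog receptor Ptch1 was at 14.27 and 13.62 in Axin2:Pdgfra cells, against 13.01 and 14.09 in Pdgfra cells. At the same threshold 3 of 14 Notch genes were lower, against 7.11% of all genes, and 0 higher. Their median of -1.01 was -0.48 without Axin2:Pdgfra library 2 and -0.56 without Pdgfra library 1. Hey1, a transcriptional repressor induced by Notch, was at 7.21 and 5.77 in Axin2:Pdgfra cells, against 11.27 and 10.54 in Pdgfra cells, a difference of -4.42 ± 0.84 (limma adjusted p = 0.0624). Dll4, a ligand of endothelial cells, was at 7.96 and 6.90 in Axin2:Pdgfra cells, against 10.78 and 9.09 in Pdgfra cells, and Lfng, which modifies Notch, at 5.50 and 6.31, against 9.59 and 9.06. These Notch genes were lower without overlap together with the endothelial genes given above, and the part of endothelial RNA in them was not tested. Among 18 semaphorins, plexins and neuropilins 4 were lower, against 7.11% of all genes, and 0 higher. Without overlap 11 were lower, against 20.8% of all genes. Their median was -0.94, and Sema6d passed the adjusted threshold. Sema3f, a secreted repellent, was at 7.90 and 7.43 in Axin2:Pdgfra cells, against 11.57 and 10.47 in Pdgfra cells, a difference of -3.35 ± 0.70 (limma adjusted p = 0.0816). Sema6a, a membrane-bound relative of Sema6d, was at 10.87 and 9.08 in Axin2:Pdgfra cells, against 12.95 and 12.44 in Pdgfra cells. The median was -0.49 without Axin2:Pdgfra library 2.

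Of 17 growth factors for epithelium and endothelium, 1 was higher and 2 were lower at an unadjusted limma p under 0.05, with a median of 0.22. The shares of all genes were 5.59% and 7.11%. The EGF receptor ligand Hbegf was at 8.66 and 5.41 in Axin2:Pdgfra cells, against 11.38 and 10.04 in Pdgfra cells, a difference of -3.68 ± 0.91 (SE; limma adjusted p = 0.138). Vegfa, the main growth factor of vessels, was at 13.57 and 13.37 in Axin2:Pdgfra cells, against 14.92 and 14.12 in Pdgfra cells, and Vegfb at 9.74 and 11.02, against 7.86 and 8.94, so that the VEGF family held differences in both directions. Of 15 chemokines and cytokines 1 was higher, with a median of 0.20: Cxcl14, a chemokine of connective tissue, was at 11.85 and 13.44 in Axin2:Pdgfra cells, against 10.92 and 10.80 in Pdgfra cells. Of 12 complement genes 3 were higher, against 5.59% of all genes, and 0 lower, with a median of 0.46. Besides C3 they were Serping1, the C1 inhibitor, at 15.97 and 16.17 in Axin2:Pdgfra cells against 15.29 and 15.66 in Pdgfra cells, and C4b, at 14.37 and 14.16 against 13.58 and 13.17. The summed complement level of Axin2:Pdgfra cells, 18.29 and 18.26, against 17.47 and 17.72 in Pdgfra cells, was the highest of the 5 lineages. Of 10 genes of the IGF axis 2 were higher, Igfbp6 and Igfbp4, with a median of 0.50 that was 0.10 without Pdgfra library 1 and 0.13 without Axin2:Pdgfra library 1. Of 15 retinoid genes 3 were higher, with a median of 0.58 that was 0.13 with values under 6 raised to 6. Among them Rarres2, the precursor of chemerin, differed by 1.48 ± 0.58, and the retinaldehyde dehydrogenase Aldh1a3 was at 6.01 and 6.12 in Axin2:Pdgfra cells, against 1.55 and 1.79 in Pdgfra cells, listed at the lowest value in Pdgfra library 1.

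Of 22 transcription factors of lung mesenchyme, 2 were higher and 3 lower at an unadjusted limma p under 0.05, with a median of -0.32. The shares of all genes were 5.59% and 7.11%. Tbx3, a T-box factor, was at 10.48 and 10.68 in Axin2:Pdgfra cells, against 12.60 and 11.83 in Pdgfra cells, a difference of -1.64 ± 0.48 (SE), and Foxf2, a forkhead factor, at 12.91 and 11.84, against 10.85 and 11.09, a difference of 1.41 ± 0.49. Zeb2, a repressor of epithelial genes, differed by -0.76 ± 0.34 with overlapping libraries. Cell cycle genes (13 tested) had no member at an unadjusted limma p under 0.05 and a median of -0.77; Top2a was at 4.12 and 2.06 in Axin2:Pdgfra cells, against 7.06 and 6.22 in Pdgfra cells, near the bottom of the scale. Of 23 immediate early genes, which tissue dissociation can induce, 3 were lower (Nr4a3, Klf4 and Nr4a2, by -1.36, -1.0 and -1.73), at a median of -0.14, and the summed level was alike, 18.93 and 19.05 in Axin2:Pdgfra cells against 19.08 and 18.98 in Pdgfra cells. Heat shock and unfolded protein response genes had 1 of 16 lower (Hsp90ab1, -0.70 ± 0.24), with a median of 0.05, and interferon response genes 1 of 17 lower (Gbp3, -2.43 ± 0.79), with a median of -0.29.

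Ribosomal protein genes and nuclear genes of the respiratory chain were mostly higher in Axin2:Pdgfra cells, and the protein genes of mitochondrial DNA were lower. Of 22 ribosomal protein genes on the list 9 were higher at an unadjusted limma p under 0.05, against 5.59% of all genes, and 0 lower. Without overlap 20 were higher, against 22.4% of all genes, at a median of 0.78. Among the fifth of genes with the shortest transcripts, up to 1773 bases, 9.99% were higher at that p. Over all 78 cytosolic ribosomal protein genes tested, a family added after the values were seen, the counts were 33 higher and 0 lower, and 63 higher without overlap, at a median of 0.85. Rps14 was at 12.45 and 11.89 in Axin2:Pdgfra cells, against 9.88 and 10.20 in Pdgfra cells, a difference of 2.13 ± 0.53 (SE; limma adjusted p = 0.145). Rplp0, of the ribosomal stalk, was at 12.91 and 13.17 in Axin2:Pdgfra cells, against 11.27 and 11.73 in Pdgfra cells, a difference of 1.54 ± 0.38. Rps15 and Rps21, of the small subunit, differed by 1.83 ± 0.41 and 2.88 ± 0.64. None passed the adjusted threshold. Of the 78 genes, 9 were higher at an unadjusted limma p under 0.05 without Pdgfra library 1 and 16 without Axin2:Pdgfra library 1. Of 24 nuclear genes of the mitochondrial respiratory chain, 5 were higher and 0 lower at an unadjusted limma p under 0.05. The shares of all genes were 5.59% and 7.11%. Without overlap 14 were higher, against 22.4% of all genes, at a median of 0.77. Cox4i1, a subunit of cytochrome oxidase, was at 11.44 and 11.10 in Axin2:Pdgfra cells, against 9.30 and 10.22 in Pdgfra cells, and Atp5c1, of ATP synthase, at 12.47 and 12.69, against 11.92 and 11.13. The number of higher genes on this list was 1 without Pdgfra library 1 and 2 without Axin2:Pdgfra library 2.

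The 13 protein genes of mitochondrial DNA, likewise added after the values were seen, all had a negative difference. Of these, 12 were lower without overlap, against 20.8% of all genes. At an unadjusted limma p under 0.05, 10 were lower, against 7.11% of all genes. The median of the 13 was -1.13, and none passed the adjusted threshold. mt-Nd5 was at 16.22 and 15.74 in Axin2:Pdgfra cells, against 17.13 in both Pdgfra libraries, a difference of -1.15 ± 0.19 (SE; limma adjusted p = 0.0541). mt-Nd4, another complex I subunit, was at 15.45 and 14.82 in Axin2:Pdgfra cells, against 16.28 and 16.80 in Pdgfra cells, a difference of -1.41 ± 0.29 (limma adjusted p = 0.0807). mt-Co1, of cytochrome oxidase, differed by -0.73 ± 0.16 (limma adjusted p = 0.0961). The subunits of one enzyme complex thus lay on both sides, nuclear Cox4i1 higher and mitochondrial mt-Co1 lower in Axin2:Pdgfra cells. The number of lower genes was 6 without Axin2:Pdgfra library 2 and 5 without Pdgfra library 2. Among 5 nuclear long noncoding RNAs 2 were lower at an unadjusted limma p under 0.05, against 7.11% of all genes. These were Neat1 and Meg3. Meg3, the RNA of an imprinted locus, was at 9.25 and 10.45 in Axin2:Pdgfra cells, against 12.84 and 11.59 in Pdgfra cells. The list's median was -1.35. Malat1, the neighbour of Neat1, was at 18.39 in both Axin2:Pdgfra libraries, against 18.72 and 18.39 in Pdgfra cells, a difference of -0.17 ± 0.14, which was 0.25 once the trend on transcript length was removed.

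Differences followed transcript length. In the fifth of genes with the shortest transcripts, up to 1773 bases, the median difference was 0.61, with 9.99% of genes higher and 4.59% lower at an unadjusted limma p under 0.05. The medians of the following classes, each with a like number of genes, were 0.26, 0.05, -0.16 and -0.39, and in the fifth with the longest transcripts 2.21% of genes were higher and 13.1% lower. Ribosomal protein genes are short, with a median of 1076 bases over the family, against 3293 over all genes. Once a trend on length was removed from each library, a step added after the values were seen, their median over the 78 genes was 0.26, that of the respiratory chain list 0.45 and that of the mitochondrially encoded genes, which are shorter still, -1.87. All 6 genes that passed did so after that step too, Neat1 with a difference of -1.82 ± 0.25 (SE; limma adjusted p = 0.0118), and 23 genes passed in all, 2 higher and 21 lower. The endothelial median was -1.78, the epithelial -2.13 and the adventitial 0.90 after it. RNA quality was not given, and its part in the length trend was not tested.

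**Figure D5:**
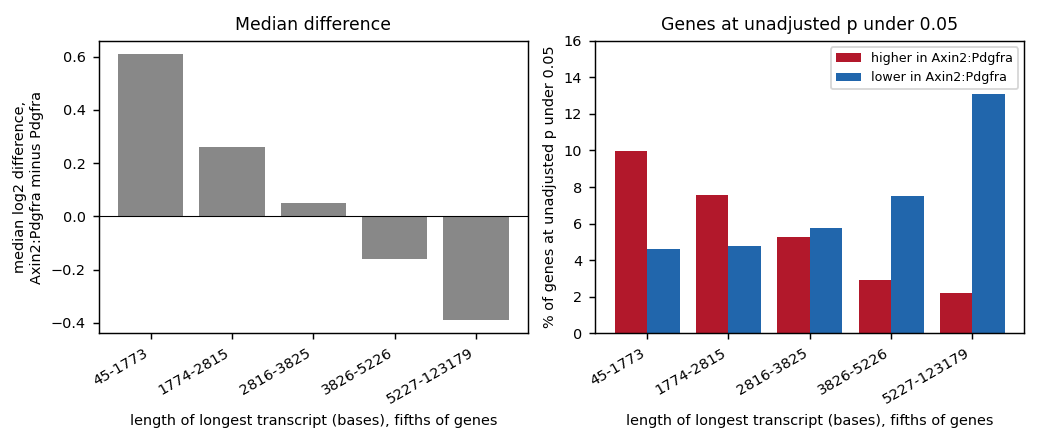
Genes in 5 equal classes by the length of their longest transcript in bases (x axes): left, the median log2 difference of Axin2:Pdgfra minus Pdgfra, and right, the percentage of genes at an unadjusted limma p under 0.05, higher (red) and lower (blue) in Axin2:Pdgfra cells. Both panels run from higher at short transcripts to lower at long ones, with medians of 0.61 and -0.39 at the ends.

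Axin2 cells and Negative cells of the same mouse line form another pair that differs in the Axin2 label and shares no library with the pair above. The same fit gave both comparisons, with 1 estimate of spread per gene. The tests are therefore not independent, since a gene with a small estimate passes more easily in both. In that comparison 34 genes were higher (0.24%) and 51 lower (0.36%) at a limma adjusted p under 0.05. Neat1 and Akap5 passed in both with the same sign, 2 of the 6 and of the 85 genes. Neat1 was at 12.83 and 12.56 in Axin2 cells, against 14.96 and 14.42 in Negative cells, a difference of -2.0 ± 0.28 (SE; limma adjusted p = 0.00863). Akap5 was at 12.94 and 11.62 in Axin2 cells, against 15.48 and 15.60 in Negative cells, a difference of -3.26 ± 0.56 (limma adjusted p = 0.021). Il18r1 differed by -3.02 ± 0.66 there (limma adjusted p = 0.0594), Sema6d by -0.95 ± 0.45 and Epas1 by -0.56 ± 0.31. Pcdh1 had the opposite sign, at 14.66 and 15.10 in Axin2 cells against 14.06 and 14.58 in Negative cells, a difference of 0.56 ± 0.36.

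List medians in Axin2 minus Negative were -1.30 for endothelial and -2.79 for epithelial genes, 0.95 for adventitial genes, 0.51 for ribosomal protein genes and -0.61 for mitochondrially encoded genes, against 0.08 over all genes. Pericyte genes had 1.38 there, against -1.22 in Axin2:Pdgfra minus Pdgfra. Erythroid genes had -7.97, against -0.80, and 3 of 7 were lower in Axin2 than in Negative cells at a limma adjusted p under 0.05. Smooth muscle contractile genes had 1.83, against 0.36. In Axin2 cells 12 of 16 were higher at an unadjusted limma p under 0.05, against 1077 of all 14177 genes. The Axin2 and Negative cells thus differed in transcripts of several cell types, and the part of these in the shared calls was not tested. Across genes, which are not independent replicates, Pearson's r between both differences was 0.16. The difference between the differences, (Axin2:Pdgfra minus Pdgfra) minus (Axin2 minus Negative), passed a limma adjusted p under 0.05 for 0 genes, with 1296 at an unadjusted p under 0.05 (9.14%). It was -2.96 for Pcdh1 (limma adjusted p = 0.237) and -1.96 for Epas1 (limma adjusted p = 0.271). Without Negative library 0 the count was 42, 1 with a positive and 41 with a negative difference of differences.

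The precision limits what these libraries can show. The median SE of a difference was 1.07, and 335 genes (2.36%) had a 95% interval within 1 unit of 0, while 3317 (23.4%) had one within 2 units. For the 1599 genes with a mean of at least 12 in the 4 libraries the median SE was 0.40, and 162 of them were higher and 193 lower at an unadjusted limma p under 0.05.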

How the data were processed

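RNA-seq of FACS-sorted adult mouse lung mesenchyme was analysed in 10 libraries, of which the 2 Axin2:Pdgfra and 2 Pdgfra libraries are compared here. The tables the authors deposited hold 1 log2 value per gene and library for 14854 Ensembl identifiers. The log2 scale was inferred from the values, which share a maximum of 19.25. The submitters' processing notes name STAR, limma and the build mm9; tool versions, annotation, read counter and normalization were not given in the sources used here. Values in the deposited tables are not counts, so no counting interval was computed and depth is unknown.

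Symbols were matched to 14720 identifiers through GENCODE M21, which also gave transcript lengths; no coordinates were taken from it. Genes reaching 6 in 2 or more libraries were kept (14177). limma 3.58.1 in R 4.3.3 was fitted with 1 mean per lineage over all 10 libraries, with 5 residual degrees of freedom (lmFit and eBayes, its trend and robust options on). Tests were two-sided, and p-values were adjusted over all genes by Benjamini-Hochberg, with a threshold of 0.05. The script was tested on simulated data. The same fit gave Axin2 minus Negative and the difference between both differences. Errors are SE from limma, and the lone remaining library of a group from which 1 was left out is assumed to vary like the others.

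The 40 gene lists (680 entries, 630 matched) were described by counts and medians without a set test. The members and lists were chosen with earlier results of these data known. Genes named are all past the threshold, the next 15 higher and 15 lower by p whose groups do not overlap, Axin2 and Pdgfra, the first 3 members of each list by p, and the cell type markers; some of these are not reported here. Members of 5 gene families, among them ribosomal protein and mitochondrially encoded genes, and the removal of the length trend were added after the values were seen. Replicate numbers are shared by the groups, and no block entered the main fit. The correlation over genes of the replicate deviations was -0.06, which cannot settle whether same-numbered libraries are paired. Near-identical gene copies, such as the hemoglobin, H2 and ribosomal protein genes, are uncertain where counting could split reads between them.

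Alternatives covered filters on low values, normalization, the variance estimate, library weights, the samples fitted, the replicate block, the barcode's second index and leaving out each library.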

Additional observations from a re-analysis of the deposited data

How the results depend on the processing

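The count of genes past the threshold, 6 (all lower in Axin2:Pdgfra cells), was also 6 with no filter on low values, with values under 6 raised to 6, after rescaling by medians or repeated quantile normalization, 5 after cyclic loess and 7 with array weights. Rescaling by medians and repeated quantile normalization could change little, since the deposited libraries already had near-identical distributions. The count was 14 with a filter at 8, 11 with the second barcode index as a covariate, 2 when only the 4 libraries compared were fitted, 0 without limma's trend and robust option (1730 at an unadjusted p under 0.05), and 23 with the length trend removed, an alternative chosen after seeing the data. Leaving out 1 library gave counts of 0 to 57, the lowest without Pdgfra library 1 (905 at an unadjusted p under 0.05). Of the 6 genes themselves 0 kept the call without Pdgfra library 1 and 0 without trend and robust, 2 (Neat1 and Epas1) kept it with only the 4 libraries, and 4 to 6 kept it in the other fits. Akap5 was also lost after cyclic loess (limma adjusted p = 0.0513), with values under 6 raised to 6 (0.0638) and without Axin2:Pdgfra library 2 (0.119) or Wnt2 library 1 or 2 (0.062 and 0.0613). Pcdh1 was also lost without Axin2 library 1 or 2 (limma adjusted p = 0.0617 and 0.0688), Axin2:Pdgfra library 2 (0.084) or Pdgfra library 2 (0.121). The causes were not tested, except that fewer samples were fitted where libraries were left out.

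With the replicate block among the 4 libraries the count was 107 (13 higher, 94 lower) and all 6 genes kept the call; the deviations of same-numbered libraries did not go together (r = -0.06), so the number is not known to pair them. The interaction count stayed at 0 in every alternative run other than leaving out Negative library 0, which gave 42.

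Direction reversed in 5 of the alternative values of 150 named genes, none of which passed a threshold: Axin2 (-0.27 without Pdgfra library 1; leaving out 1 library gave -1.18 to 1.32, the ends without Axin2:Pdgfra library 1 and 2), Ptch1 (-0.15 without Pdgfra library 1, up to 0.93 without library 2), Mx1 (-6.11 without Axin2:Pdgfra library 1, 0.44 without library 2) and Malat1 (0.25 with the length trend removed; -0.33 to 0.00 with 1 library left out). Of the others, 3152 stayed in place, 107 gained and 25 lost a call. With 1 of the 4 libraries left out, list medians took both signs for canonical Wnt targets (-0.70 to 0.16), mesothelial genes (-1.60 to 1.15), erythroid genes (-1.19 to 0.42), mesenchymal transcription factors (-0.84 to 0.21), interferon response genes (-0.51 to 0.28), chemokines (-0.33 to 0.34) and growth factors (-0.19 to 0.46), and also for Frizzled, FGF, BMP, IL6, smooth muscle, basement membrane and heat shock genes. The TGF-beta genes higher at an unadjusted limma p under 0.05 numbered 0 without Pdgfra library 1 and 4 without library 2. Medians that kept their sign but moved by over 1.5 times with 1 library left out were those of Hedgehog (0.02 to 0.59), alveolar fibroblast (0.05 to 0.48), TGF-beta (0.22 to 0.47), PDGF (0.05 to 0.14), retinoid (0.24 to 0.55), protease (0.20 to 0.53), proteoglycan (0.34 to 0.92), elastic fibre (0.19 to 0.58), collagen (0.15 to 0.44), complement (0.37 to 0.72), ribosomal protein list (0.48 to 1.0), cell cycle (-1.06 to -0.23), immediate early (-0.26 to -0.05), long noncoding RNA (-1.74 to -0.63), splicing (-0.27 to -0.16) and MHC genes (-0.99 to -0.53), besides those given with their lists.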

Other observations

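Further gene families, chosen after the values were seen, are given as values only. Over all genes 5.59% were higher and 7.11% lower at an unadjusted limma p under 0.05. Splicing regulators were sought by the symbols Srsf, Srrm, Luc7l, Clk and Rbm, which also took in other genes, such as the opposite-strand genes Rbm3os and Rbm46os. Of the 58 genes tested, 10 were lower and 1 higher at an unadjusted limma p under 0.05. The median of -0.27 was -0.08 once the length trend was removed. The family's summed level was 17.39 and 17.32 in Axin2:Pdgfra cells, against 18.19 and 18.00 in Pdgfra cells. Differences of the 58 genes were positive in 24 and negative in 34. Without overlap 11 were higher and 21 lower, against 22.4% and 20.8% of all genes. Luc7l3 and Srsf11, both bound to early spliceosomes, differed by -2.09 ± 0.51 and -1.51 ± 0.44 (SE). The 1 higher gene, Rbm34, differed by 5.49 ± 2.06 and was listed at the lowest value in Pdgfra library 1. Of 36 proteasome subunits, 5 were higher and 0 lower, with a median of 0.72 that was 0.28 once the length trend was removed, and Psma6 was at 12.21 and 12.34 in Axin2:Pdgfra cells, against 10.12 and 10.65 in Pdgfra cells. Of 18 MHC genes, 4 were lower and 0 higher, with a median of -0.84, and H2-Q6, a class I gene with near-identical relatives, was at 8.4 and 10.74 in Axin2:Pdgfra cells, against 12.47 and 12.50 in Pdgfra cells. The more abundant class I genes H2-D1 and H2-K1 differed by 0.12 ± 0.26 and 0.02 ± 0.27. None of these genes passed the adjusted threshold.

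Of the genes tested, 327 took the bottom value of both Axin2:Pdgfra libraries and of neither Pdgfra library, and 19 the other way round. Bottom values were also taken by more genes in the Axin2:Pdgfra libraries, 8.6% and 15%, against 8% and 2.1% in the Pdgfra libraries.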
